A study of Sus scrofa with 27 samples.

Results

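The genes described here are 10 members of the endocannabinoid system, out of 35670 gene identifiers counted in mural granulosa cells (GCs) of sows. They comprise both cannabinoid receptors, CNR1 and CNR2, and the enzymes that make or break down the receptors' lipid ligands, NAPEPLD, GDE1, FAAH, DAGLA, DAGLB, MGLL, ABHD6 and ABHD12. Each member was found as the row whose pig Ensembl identifier carries that symbol, and all 10 symbols had 1 row. The members were chosen because CNR1 was among the largest rises in RES GCs, with rank 7 by log2 fold change among 11384 genes tested, so its difference between the diets is given as a description, with its error and with no p-value.

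Full-fed (FF) sows received 6.5 kg of feed per day and feed-restricted (RES) sows 3.25 kg per day over the last 2 weeks of lactation, and all sows had the same feed from weaning until the ovaries were taken on day 2 post-weaning. All were wild-type primiparous crosses of Large White and Norwegian Landrace. Mural GCs, the cells lining the follicle wall, were cut out by laser capture from the largest healthy follicle of 1 ovary per sow, giving 13 FF and 14 RES RNA-seq libraries, 1 per sow. The sows were selected from larger groups for high (RES) or low (FF) body weight loss, follicles with apoptotic GCs were left out, and 1 FF sow was left out for its RNA. The comparison is therefore between selected sows with different weight loss, and follicle size was not analysed here.

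The endocannabinoids anandamide and 2-arachidonoylglycerol (2-AG) are lipids made on demand from membrane phospholipids. They act on the G-protein-coupled receptors CB1 (CNR1) and CB2 (CNR2), which mostly couple to inhibitory G proteins, and are cleared inside cells by hydrolases. CB1 is known for its part in appetite and energy balance in the brain, and endocannabinoid receptors and enzymes are also found in the ovary.

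FF libraries had 12299220 to 16021200 counts and RES libraries 12942198 to 18120922, with medians of 13490513 and 15232600, and no pair of libraries held identical counts. Base quality in the study's sequencing records, as the share of bases scored 20 or better, separated the libraries into an upper base-quality group (7 FF and 7 RES) and a lower one (6 FF and 7 RES). The labels say that FF sow 9 was left out for low RNA integrity, but in the study's RNA records the lowest integrity of all sows is that of FF sow 10, which has a library here. FF sow 10 may therefore be the sample with abnormal RNA, and its base-quality record is uncertain. Without it the log2 fold change of CNR1 was 2.13 with a standard error of 0.51, and 0 of the 8 enzymes tested were called. Values within each group are given beside the results below. The granulosa marker list, 11 genes with an identifier, had a summed normalized count of 95035 to 165618 in FF and 104560 to 174558 in RES libraries. Of the neural and Schwann markers, SOX10, CDH19, TUBB3 and SNAP25 had a mean count below 1 but UCHL1 had 1079 and SYT1 11.11, and the summed list ran from 292 to 1417 normalized counts in FF and 816 to 1536 in RES libraries. Of the oocyte markers, ZP2, ZP3, OOSP2 and FIGLA had a mean count below 1 but GDF9 had 222, and the summed list ran from 168 to 366 in FF and 151 to 322 in RES libraries.

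CNR1 lies on the minus strand of chromosome 1 (chr1:56466022-56493275, Sscrofa11.1). RefSeq gives it 6 transcript models with alternative first exons and a shared last exon of 6007 bases, which holds the whole coding sequence of 1419 bases. MGLL lies on the plus strand of chromosome 13 (chr13:72480395-72568964). The 250 bases before the outermost start of each of these genes are shown because CNR1 is the receptor gene whose rise chose the members and MGLL the enzyme that differed most between the diets. The sequences are from the RefSeq genome, given in the direction of transcription, for CNR1 from chr1:56493276-56493525 and for MGLL from chr13:72480145-72480394, and capitals mark matches to the motifs searched.
CNR1: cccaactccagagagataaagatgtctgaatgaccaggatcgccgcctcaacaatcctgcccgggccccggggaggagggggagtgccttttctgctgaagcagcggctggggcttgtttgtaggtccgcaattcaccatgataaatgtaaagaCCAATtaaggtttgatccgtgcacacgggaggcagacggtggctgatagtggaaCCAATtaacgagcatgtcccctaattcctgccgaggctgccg
MGLL: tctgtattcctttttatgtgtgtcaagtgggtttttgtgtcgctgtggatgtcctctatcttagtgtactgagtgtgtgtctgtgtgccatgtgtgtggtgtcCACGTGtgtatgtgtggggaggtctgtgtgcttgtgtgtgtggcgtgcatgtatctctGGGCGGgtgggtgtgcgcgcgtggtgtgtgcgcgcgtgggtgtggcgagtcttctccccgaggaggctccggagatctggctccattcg
The search covered 8 short motifs on both strands: a TATA-type box spelled TATAAA, the CCAAT box, a GC box spelled GGGCGG, a cyclic AMP response element spelled TGACGTCA, an AP-1 site spelled TGACTCA, a nuclear receptor half-site spelled AGGTCA, a FOXO site spelled TGTTTAC and an E-box spelled CACGTG. No matches overlapped. The CNR1 window held 2 CCAAT matches, starting 96 and 42 bases before the start, and no match to the other motifs. CCAAT was found in 31.9% of 19531 promoter windows of this length. The MGLL window held a GC box match 89 bases before the start and an E-box match 147 bases before it, which were found in 45.9% and 6.39% of windows. The GC content of the windows was 55.2% for CNR1 and 56.0% for MGLL, against a median of 57.6% over all windows. A match is a description of letters only, and binding was not measured.

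**Figure D1:**
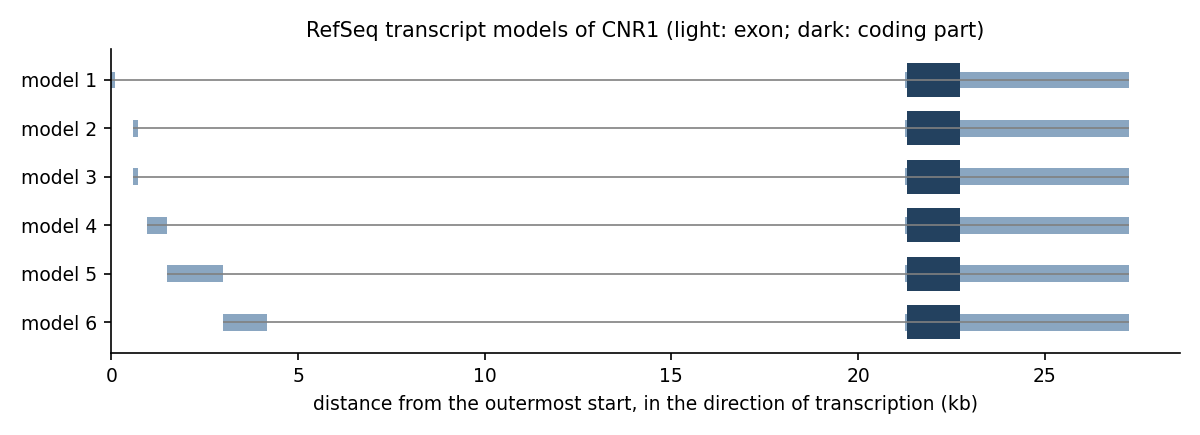
RefSeq transcript models of CNR1 as distance in kb from the outermost start, in the direction of transcription, with exons as light and the coding part as dark boxes. All 6 models share the last exon of 6007 bases that carries the coding part, while their first exons differ.

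CNR1, the gene of the CB1 receptor, was low and variable in FF GCs and higher in RES GCs. Its normalized count, the read count divided by the library's size factor, ran from 0 to 35.7 with a median of 8.63 in FF sows, and from 8.99 to 148 with a median of 29.2 in RES sows. A read was counted in 11 of 13 FF and in 14 of 14 RES libraries. FF sows 2 and 6 had a count of 0, where up to 3 reads, or 2.88 and 3.31 normalized counts, cannot be told from 0. The groups overlapped: all 14 RES sows were above the FF median, but only RES sows 4, 1, 9 and 12 (148, 102, 93.9 and 59.7) were above the highest FF sow, sow 13 at 35.7. At the other end, 7 FF sows were below the lowest RES sow. The mean ± SD over sows was 11.7 ± 11.5 for FF (n = 13) and 45.1 ± 41.3 for RES GCs (n = 14), and ± has this meaning throughout. The fitted difference was 3.78-fold with a 95% interval of 1.86 to 7.68, a log2 fold change of 1.92 with a standard error of 0.50. In bulk RNA a change in the number of cells that carry a transcript and a change in the RNA per cell cannot be told apart.

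**Figure D2:**
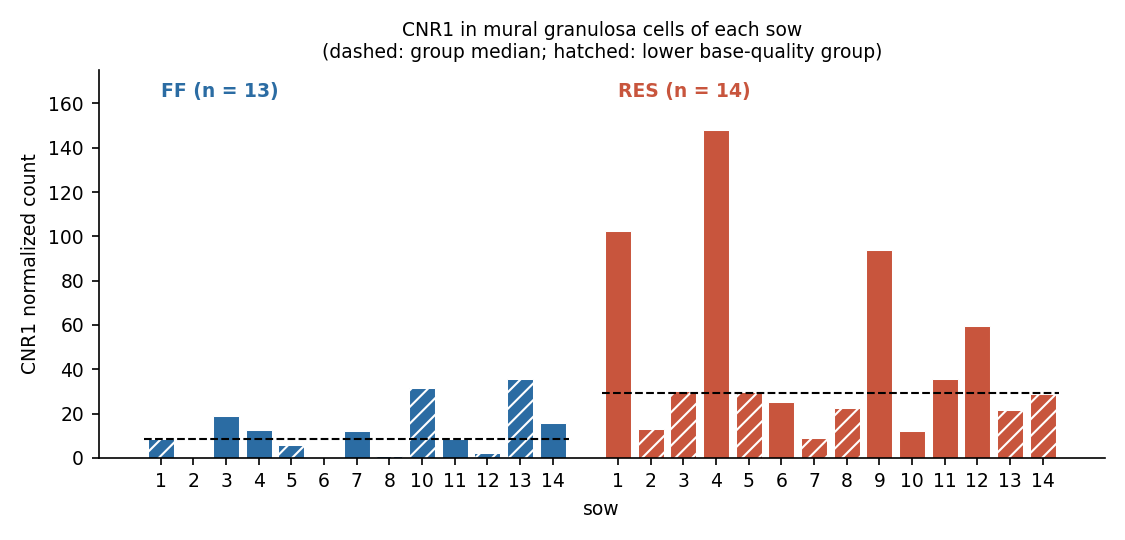
CNR1 normalized count (y axis) in each sow (x axis), FF in blue and RES in red, with the group median as a dashed line and hatched bars for the lower base-quality group. RES sows 4, 1, 9 and 12 stand above every FF sow, and all 4 are in the upper base-quality group.

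The fitted difference in CNR1, also described without a test, was larger in the upper than in the lower base-quality group. In the upper group CNR1 was at 9.67 ± 7.34 normalized counts for FF and 68.1 ± 49.0 for RES (n = 7 each), with a log2 fold change of 2.81 with a standard error of 0.63. In the lower group it was at 14.1 ± 15.4 for FF (n = 6) and 22.1 ± 8.36 for RES (n = 7), with a log2 fold change of 0.60 with a standard error of 0.58 and a 95% interval of -0.63 to 1.83. The log2 fold change was lower by 2.19 in the lower group, with a standard error of 0.91. Across all genes tested, 1 gene (0.00878%) passed the threshold in the lower group alone and 2023 (17.8%) in the upper group alone. CNR1 was also unusually variable for its level. Its coefficient of variation was 97.7% in FF and 91.6% in RES GCs, above that of 96.3% and 98.0% of the genes within 2-fold of its mean, whose median was 45.9% and 30.9%.

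CNR2, the gene of the CB2 receptor best known from immune cells, was near the limit of detection. It had 0 to 19 reads in FF libraries, 41 in all, and 0 to 5 reads in RES libraries, 26 in all. A read was found in 9 of 13 FF and 10 of 14 RES libraries. The highest value, 18.1 normalized counts in FF sow 11, was followed by 7.82 in FF sow 14, and the highest RES sow had 5.11. Its mean count was below the minimum of 5 for testing, and no difference was detectable at this depth.

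Per kilobase of RefSeq exon, GDE1 was the most abundant member and the receptors were among the least abundant. GDE1 had a mean of 200.0 ± 47.0 normalized counts per kb in FF GCs. ABHD6 had 41.8 ± 5.05 and ABHD12 38.2 ± 10.8 per kb, which overlapped, followed by NAPEPLD at 15.5 ± 3.58, DAGLB at 8.15 ± 2.71, MGLL at 5.81 ± 1.75 and FAAH at 3.80 ± 1.54. CNR1 at 1.24 ± 1.21, DAGLA at 1.19 ± 0.458 and CNR2 at 0.831 ± 1.32 per kb did not differ beyond their spread. In RES GCs CNR1 at 4.78 ± 4.38 per kb was instead close to FAAH at 4.34 ± 2.68 and MGLL at 4.13 ± 1.59, and the means of the other members ran from GDE1 at 217 ± 45.2 to DAGLA at 1.17 ± 0.49 and CNR2 at 0.461 ± 0.429. Exon lengths from RefSeq stand in for those of the Ensembl models used in counting, and they join the exons of all models of a gene. For CNR1 the 9448 bases include every alternative first exon. The length of any single CNR1 model would give a higher value per kb.

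The 8 enzymes were tested between the diets with edgeR's quasi-likelihood test, and 0 of 8 passed an adjusted p of 0.05, against 14.1% of the 11384 genes tested (8.29% called higher and 5.85% called lower in RES GCs). With an unadjusted p under 0.05 there were 2 enzymes, MGLL and ABHD6, against 30.0% of all genes. DESeq2 called 1 of 8, MGLL, against 17.0% of all genes. The median log2 fold change of the 8 enzymes was -0.12, against -0.02 over all genes tested, with 5 enzymes below 0 and 3 above.

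Among the enzymes of 2-AG breakdown, MGLL, the monoacylglycerol lipase that is the main 2-AG hydrolase in many tissues, showed the largest difference. It ran from 13.2 to 34.8 normalized counts with a median of 24.1 in FF sows, and from 8.75 to 30.6 with a median of 16.2 in RES sows. Of the 14 RES sows 12 were below the FF median, and RES sows 12, 2, 4, 9 and 1 were below every FF sow, while 4 FF sows were above every RES sow. FF GCs averaged 24.1 ± 7.26 and RES GCs 17.1 ± 6.58. The log2 fold change was -0.53 with a standard error of 0.20 and a 95% interval of -0.93 to -0.13 (edgeR adjusted p = 0.066), so MGLL did not pass the threshold. It passed with base-quality group as a covariate (log2 fold change -0.57, adjusted p = 0.040) and in the upper group alone (-0.80, adjusted p = 0.039) but not in the lower group alone (-0.33, adjusted p = 0.69). It also passed in edgeR when FF sow 13 (adjusted p = 0.042) or RES sow 5 (0.038), 7 (0.038) or 14 (0.028) was left out. ABTB1 overlaps the last exon of MGLL on the opposite strand, and counting used no strand option, so MGLL counts are uncertain there.

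ABHD6 and ABHD12, the other 2-AG hydrolases, differed little. ABHD6 ran from 97.2 to 154 normalized counts in FF sows and from 88.6 to 136 in RES sows, with medians of 120 and 105. The groups overlapped widely, and ABHD6 varied least of the members, with a coefficient of variation of 12.1% in FF and 12.8% in RES GCs. Its log2 fold change was -0.18 with an interval of -0.34 to -0.02 (edgeR adjusted p = 0.126). ABHD12 ran from 53.4 to 119 in FF (median 65.5) and from 43.6 to 144 in RES sows (median 70.1). Its log2 fold change was 0.001 with an interval of -0.33 to 0.33 (edgeR adjusted p = 0.997), and its sign changed with DESeq2 and with many single libraries left out.

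The 2-AG-making diacylglycerol lipases DAGLA and DAGLB did not pass the threshold either. DAGLA, the form best known from neurons, was low, with 2.86 to 11.3 normalized counts in FF (median 7.02) and 2.80 to 11.9 in RES sows (median 6.13). Its log2 fold change was -0.05 with an interval of -0.55 to 0.44 (edgeR adjusted p = 0.911). In FF sows normalized DAGLA counts were lower in the upper base-quality group (2.86 to 7.02) than the lower one (7.60 to 11.3), without overlap. This split was noticed after the values were seen, and the share of all genes that split in this way was not counted. Before scaling the reads overlapped, with 7 in FF sow 7 of the upper group and 6 in FF sow 10 of the lower group. The base-quality record of FF sow 10 is uncertain. In RES sows the normalized counts of the same groups overlapped, at 3.91 to 9.28 and 2.80 to 11.9. DAGLB ran from 13.0 to 37.1 in FF (median 22.2) and from 9.19 to 30.2 in RES sows (median 19.8), with a log2 fold change of -0.26 and an interval of -0.63 to 0.11 (edgeR adjusted p = 0.344).

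Of the enzymes of anandamide, NAPEPLD, a phospholipase that releases anandamide from its precursor, ran from 55.7 to 112 normalized counts in FF (median 81.8) and from 53.9 to 97.4 in RES sows (median 71.6). FF sows 6, 14, 2 and 11 were above every RES sow, and the log2 fold change was -0.24 with an interval of -0.48 to 0.003 (edgeR adjusted p = 0.171). ARMC10 overlaps NAPEPLD by a few bases. GDE1, a phosphodiesterase of another route to anandamide, ran from 168 to 488 in FF (median 331) and from 229 to 473 in RES sows (median 363), with a log2 fold change of 0.08 and an interval of -0.17 to 0.32 (edgeR adjusted p = 0.709). FAAH, the hydrolase that breaks anandamide down, ran from 6.74 to 30.4 in FF (median 15.1) and from 8.40 to 43.4 in RES sows (median 12.6). RES sows 4 and 3 were above every FF sow for FAAH, at 43.4 and 32.6, while the RES median was below the FF median. Its log2 fold change was 0.16 with an interval of -0.37 to 0.70 (edgeR adjusted p = 0.718), and without RES sow 4 it was -0.03.

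**Figure D3:**
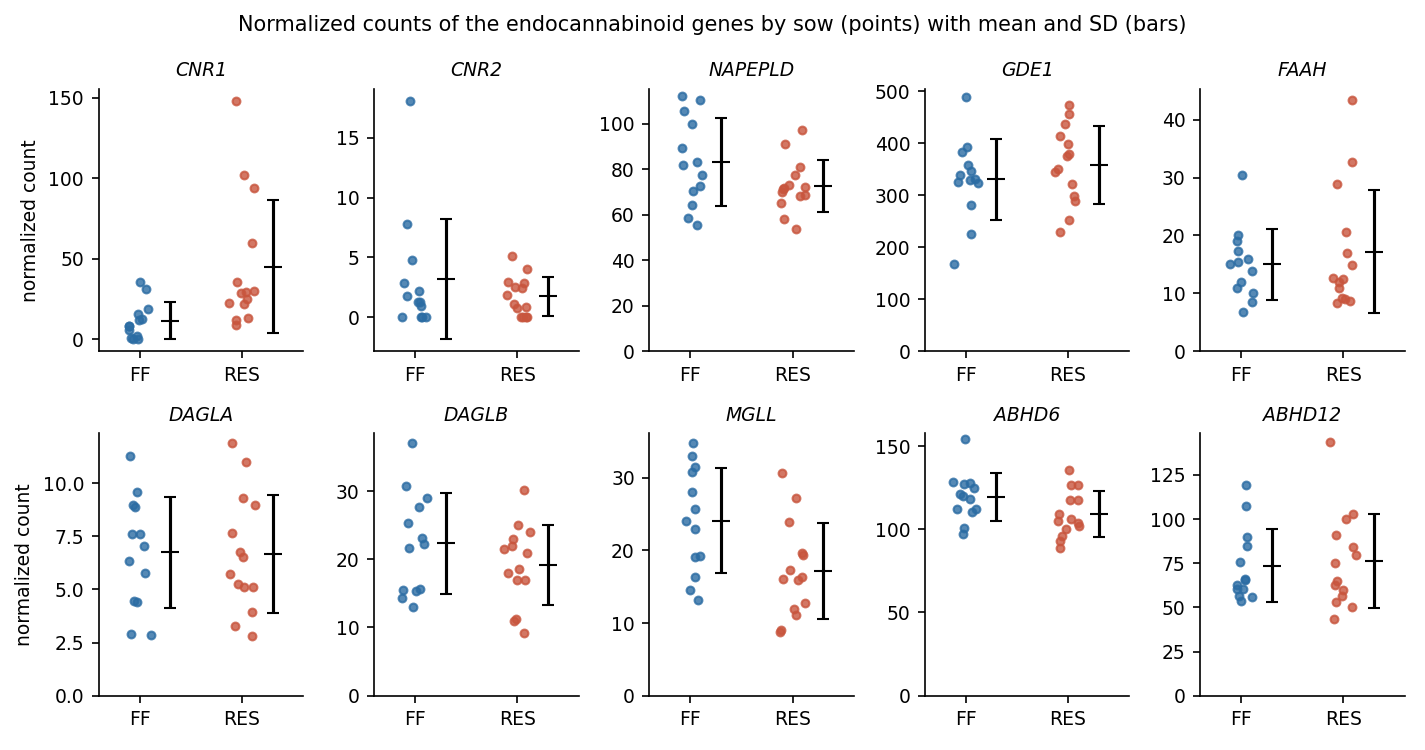
Normalized counts (y axes, linear, each gene on its own scale) of the 10 genes in each FF (blue, n = 13) and RES (red, n = 14) sow, with the mean and SD as black bars. CNR1 reaches 148 in RES against 35.7 in FF sows, MGLL is lower in 12 of 14 RES sows than the FF median, and the other enzymes overlap widely.

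The enzyme levels can be set side by side as ratios of counts per kb, as a description. DAGLA and DAGLB over MGLL, ABHD6 and ABHD12 gave medians of 0.106 for FF and 0.09998 for RES GCs, with SDs of 0.0367 and 0.0266. NAPEPLD and GDE1 over FAAH gave 66.8 ± 31.7 for FF and 69.4 ± 33.7 for RES GCs. Both ratios differed by less than the spread between sows. They are set mostly by the abundant genes, so they hardly register a difference in MGLL or NAPEPLD. In FF GCs MGLL had 5.81 per kb beside 41.8 for ABHD6 and 38.2 for ABHD12, and NAPEPLD 15.5 beside 200.0 for GDE1. They are ratios of transcripts, and neither lipids nor enzyme activity were measured.

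The difference between the diets was compared between the base-quality groups. Of the 8 enzymes 0 passed the adjusted threshold for this interaction in edgeR, as did 0 of all genes, and 2, GDE1 and DAGLA, had an unadjusted p under 0.05, against 12.3% of all genes. GDE1 had a log2 fold change of -0.19 in the upper and 0.35 in the lower group (interaction edgeR p = 0.022, adjusted p = 0.353). DAGLA had 0.44 in the upper and -0.47 in the lower group (interaction edgeR p = 0.048, adjusted p = 0.407). DESeq2 called 57 genes for the interaction, and of the enzymes 0 of the 6 to which it gave an adjusted p. It gave none to FAAH and DAGLA.

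**Figure D4:**
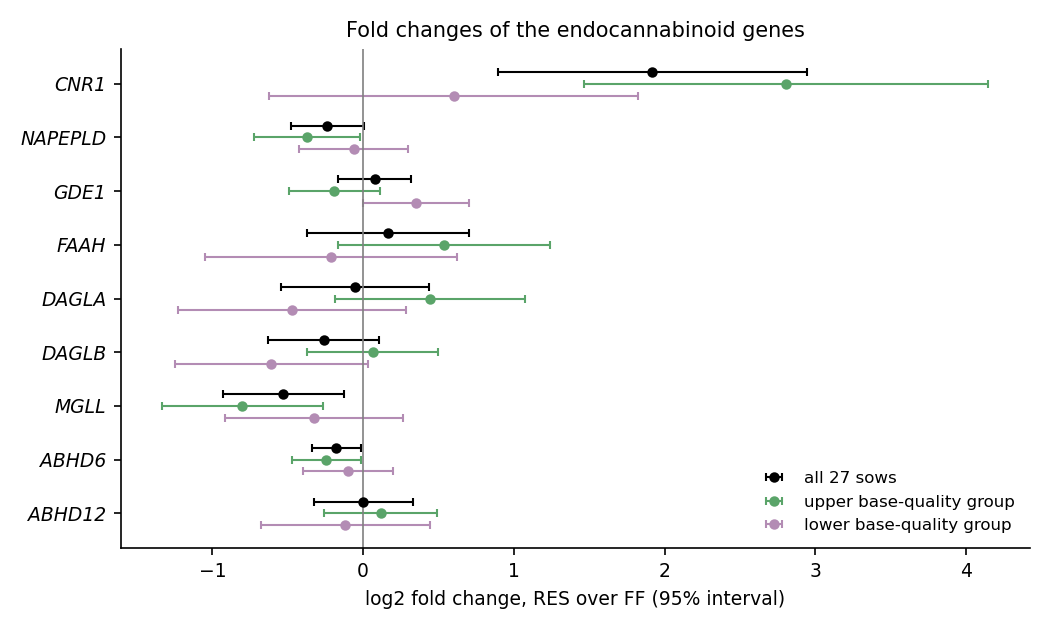
Log2 fold change of RES over FF (x axis) with 95% intervals for the 9 members tested, over all 27 sows (black) and in the upper (green) and lower (purple) base-quality groups alone. CNR1 lies at 1.92 over all sows, 2.81 in the upper and 0.60 in the lower group, and of the enzymes MGLL lies farthest from 0 over all sows, at -0.53.

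Whether the members varied with CNR1 from sow to sow was examined within each diet group, as 18 correlations of normalized counts with permutation p-values. CNR1 and MGLL moved in opposite directions in FF sows, with Pearson's r = -0.69 (permutation p = 0.00795, adjusted p = 0.072, n = 13) and Spearman's rho = -0.77 (permutation p = 0.00295, adjusted p = 0.053). FF sows 2 and 6, without a CNR1 read, had MGLL at 30.8 and 33.0 normalized counts, and FF sow 13, the highest for CNR1, had the lowest MGLL of the FF sows at 13.2. Without the 2 FF sows farthest from the CNR1 median r was -0.81, and within the upper and lower base-quality groups r was -0.85 and -0.76 (n = 7 and 6). Without FF sow 10 the correlation passed the threshold, with r = -0.80 (permutation adjusted p = 0.00828), and without FF sow 13 r was -0.58 (permutation adjusted p = 0.204). In RES sows r was -0.57 (permutation p = 0.032, adjusted p = 0.194, n = 14), and Spearman's rho was -0.44 (permutation p = 0.115, adjusted p = 0.414). Without the 2 farthest RES sows r was -0.43. The RES relation did not hold within both base-quality groups, with r = -0.80 in upper-group and 0.42 in lower-group sows (n = 7 each).

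CNR1 and GDE1 were inversely related in RES sows, the 1 of 18 correlations with an adjusted p under 0.05. Pearson's r was -0.72 (permutation p = 0.00247, adjusted p = 0.044, n = 14) and Spearman's rho = -0.64 (permutation p = 0.015, adjusted p = 0.138). RES sows 4, 12 and 9 were the highest for CNR1 apart from sow 1 and the lowest for GDE1, at 229, 252 and 289 normalized counts. Without the 2 farthest RES sows r was -0.62 (permutation adjusted p = 0.212), and it was -0.79 in the upper but 0.15 in the lower base-quality group, so the relation did not hold within both. The permutation adjusted p was above 0.05, at 0.058 to 0.261, when RES sow 2, 4, 5, 6, 7, 8, 9, 10, 11 or 13 was left out, with the highest value without sow 4. In FF sows r was -0.35 (permutation p = 0.248, adjusted p = 0.557), and Spearman's rho was -0.17 (permutation p = 0.588, adjusted p = 0.902). Whether the relation differed between the diets was not tested.

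CNR1 and FAAH had r = 0.53 in RES sows (permutation p = 0.0496, adjusted p = 0.223), with Spearman's rho at 0.55 (permutation p = 0.044, adjusted p = 0.265), but r was 0.04 without RES sow 4 and 0.60 without RES sow 1, so Pearson's r rested on sow 4. Without both, the 2 farthest from the CNR1 median, r was 0.06 and rho 0.38, and within the upper and lower base-quality groups r was 0.67 and 0.62 (n = 7 each). In FF sows r was 0.45 (permutation p = 0.125, adjusted p = 0.390), Spearman's rho was 0.23 (permutation p = 0.455, adjusted p = 0.820), and without the 2 farthest sows r was -0.05. The other 13 correlations, with CNR2, NAPEPLD, DAGLA, DAGLB, ABHD6, ABHD12 and with GDE1 in FF sows, had r between -0.43 and 0.29. All values of a sow share 1 library and its size factor.

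**Figure D5:**
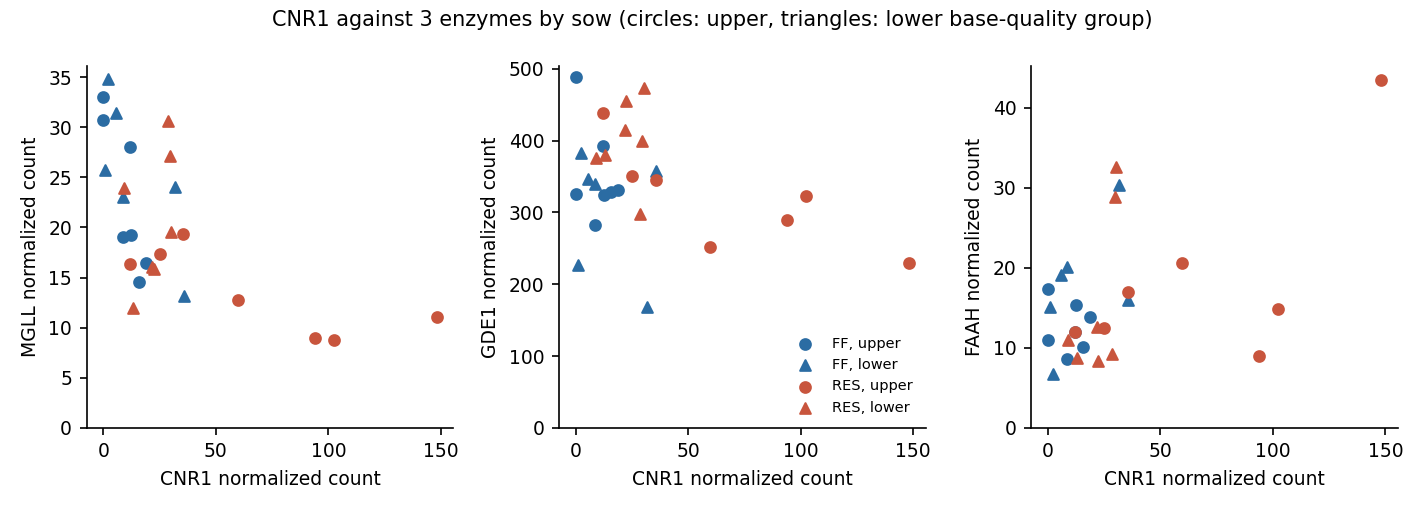
Normalized counts of MGLL, GDE1 and FAAH (y axes) against CNR1 (x axes) for each FF (blue) and RES (red) sow, as circles in the upper and triangles in the lower base-quality group. MGLL falls as CNR1 rises in FF sows (r = -0.69), and the 4 RES sows with the highest CNR1, all circles, lie low for MGLL and GDE1.

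Genes of the wider pathway, 46 in a list of other receptors for these lipids, G proteins, receptor regulators, further enzymes and lipid carriers, were read from the same fit. Of these 41 had an identifier and 30 were tested, and edgeR called 7 of 30, or 23.3%, against 14.1% of all genes. The median log2 fold change of the 30 was -0.03, and 14 were above and 16 below 0. In the lower base-quality group alone 0 of 30 passed, where 1 of all genes did.

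Of the called genes 5 were higher in RES GCs. FABP3, a cytosolic fatty acid carrier, ran from 89.4 to 317 normalized counts in FF (median 156) and from 144 to 1257 in RES sows (median 407), with 9 of 14 RES sows above every FF sow. Its log2 fold change was 1.55 with a standard error of 0.30 (edgeR adjusted p = 0.00194). PPARG, a lipid-activated nuclear receptor, ran from 462 to 2862 in FF (median 1272) and from 592 to 4911 in RES sows (median 2197), with a log2 fold change of 0.95 and a standard error of 0.30 (edgeR adjusted p = 0.032). The groups overlapped, with 5 of 14 RES sows above every FF sow, and the PPARG call was lost in edgeR (adjusted p = 0.051 to 0.060) without FF sow 2 or 8 or RES sow 1, 4, 9 or 11. The inhibitory G-protein subunits GNAZ and GNAI2 rose by 0.83 (standard error 0.23, edgeR adjusted p = 0.015) and 0.33 (standard error 0.10, edgeR adjusted p = 0.022) on the log2 scale. All 14 RES sows were above the FF median for GNAZ, at 8.99 to 28.6 against 3.84 to 13.9 normalized counts. GRK3, a kinase of active receptors, was at the edge of the threshold, with a log2 fold change of 0.33 (edgeR adjusted p = 0.0498) that was lost when any of 19 single libraries was left out.

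The called genes that were lower in RES GCs were SGIP1 and ARRB1, both regulators of receptor uptake. SGIP1, a protein that binds CB1 and slows its internalization, ran from 18.1 to 54.3 normalized counts in FF (median 43.8) and from 8.98 to 50.9 in RES sows (median 16.1). Of the 14 RES sows 9 were below every FF sow, and the log2 fold change was -1.02 with a standard error of 0.25 (edgeR adjusted p = 0.00688). ARRB1, a beta-arrestin, ran from 10.6 to 44.1 in FF (median 20.1) and from 5.45 to 34.0 in RES sows (median 10.8), with a log2 fold change of -0.84 and a standard error of 0.24 (edgeR adjusted p = 0.019). CNRIP1, a further CB1-binding protein, was low, at 3.57 ± 2.42 in FF and 4.11 ± 2.06 in RES GCs, and was not tested. TRPV1, a channel opened by anandamide, had no read in any library, and GPR55 had 1 read in FF and 3 in RES libraries.

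The summed markers of theca and endothelial cells were lower where CNR1 was higher in both diet groups. The theca marker list, 11 genes of which LHCGR and STAR are also expressed by GCs, had a summed normalized count of 9979 to 42093 in FF and 3592 to 35822 in RES libraries, and its log2 sum had r = -0.62 with CNR1 in FF and -0.89 in RES sows (n = 13 and 14). CYP11A1 was the 1 of its 10 tested genes that passed the edgeR threshold, lower in RES GCs. The endothelial list, 9 genes, ran from 898 to 1582 in FF and from 594 to 1877 in RES libraries, with r = -0.57 and -0.75. Of its 8 tested genes 3 were called lower in RES GCs. Over all genes tested 5.85% were called lower and 8.29% higher, the shares beside which these marker counts stand. For single genes the 5th percentile of r with CNR1 was -0.59 in FF and -0.64 in RES sows. Of the stroma and mural cell markers 2 of 12, PDGFRB and RGS5, and of the erythroid markers HBB were also called lower, and of the immune markers 0 of 5. The log2 sum of the stroma and mural list had r = 0.53 with CNR1 in FF and -0.57 in RES sows. Its most abundant genes COL1A2 (0.63 and -0.56) and COL3A1 (0.59 and -0.60), fibrillar collagens, had the same signs, while RGS5 (-0.71 and -0.75), PDGFRB (-0.21 and -0.40) and MYH11 (-0.26 and -0.34), found in mural cells, were negative in both diet groups. ACTA2 (0.28 and -0.28) and TAGLN (0.11 and -0.52), also found in mural cells, were not. The log2 sum of the immune list had r = 0.14 and -0.57, that of the neural and Schwann list -0.13 and -0.53, of the oocyte list -0.17 and -0.32, and of the erythroid list 0.26 and -0.20. The granulosa list had r = 0.21 and -0.44, and of its 11 genes HSD17B1 was called higher and GJA1 lower in RES GCs. The part of these cells in the CNR1 result was not tested.

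The genes whose level was most like that of CNR1 were found by Pearson's r of log2 normalized counts over 9512 genes, ranked by the lower r of both diet groups. YEATS2 (r = 0.81 in FF and 0.81 in RES sows), EML4 (0.80 and 0.83) and CCN2 (0.89 and 0.80) led, followed by RFFL, ALDH2, CTNNA2, NDE1 and PIK3AP1. Of these 8 genes 5 were also among the 8 most alike by Spearman's rho, and ALDH2 and NDE1 passed the edgeR threshold for the diets, higher in RES GCs. The most unlike were SLC2A13 (r = -0.84 and -0.88), ADAMTSL1, TMCO1 and GLDN. Of these 4 genes 2 were also among the 4 most unlike by Spearman's rho, and TMCO1 and GLDN passed the edgeR threshold, lower in RES GCs. The 5th to 95th percentile of r over all genes was -0.59 to 0.63 in FF and -0.64 to 0.63 in RES sows. By the same measure MGLL had rank 158 of 9512 among the genes most unlike CNR1, with r = -0.73 and -0.59.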

How the data were processed

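The authors mapped read pairs with HISAT2 2.2.1 on Sscrofa11.1, the pig reference, kept uniquely mapped reads with SAMtools 1.16.1, removed PCR copies by their molecular identifiers with UMI-tools 1.1.4 and counted exons of Ensembl genes with featureCounts 1.6.2. The 27 deposited tables hold raw counts per gene, 1 library each, and the counting command names no strand option although the library kit marks strand. The members and gene lists were chosen with earlier results of these data known.

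Genes with a symbol and a mean count of at least 5, without 38 small RNAs, were tested (11384) with edgeR 4.0.16 (R 4.3.3), using the quasi-likelihood test with TMM normalization, no covariates and Benjamini-Hochberg adjustment over all of them, and with DESeq2 1.42.0 as an alternative. Each count was divided by its library's size factor (DESeq2, over 17467 identifiers) to give normalized counts. Correlations used 100000 permutations, two-sided, with Benjamini-Hochberg adjustment over 18, and log2 values a pseudocount of 1. On simulated data with 200 genes changed 2-fold among 11384, edgeR recovered 89% with 2.73% of calls on unchanged genes. The changed genes were drawn over all levels, so this share does not apply to smaller differences or to genes with low counts. Intervals come from the quasi-likelihood fit, whose dispersion includes variation between sows, and they cover no error outside that fit. Limits for a count of 0 cover counting error only. Named genes were the members, the wider pathway genes called, and the 8 most and 4 most unlike CNR1. TRPV1, GPR55, CNRIP1, PLA2G4E, GNAI1, FSHR, LHCGR and the markers were named after their values were seen. Other settings were DESeq2's size factors in edgeR, a replicate block, the base-quality group, each library left out, filterByExpr or no filter, and every identifier in the fit. Positions, promoter windows and exon lengths are from the RefSeq annotation of Sscrofa11.1.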

Additional observations from a re-analysis of the deposited data

How the results depend on the processing

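CNR1 was higher in RES GCs in every setting, with a log2 fold change from 0.60 to 2.81 over the 10 settings that changed the method or the set of libraries, and from 1.62 to 2.21 when single libraries were left out. The count of genes called, 1610, was 1086 to 2263 over those settings apart from the lower base-quality group alone, where it was 1, and 1182 to 2350 with single libraries left out. DESeq2's size factors in edgeR called 1197 genes higher and 522 lower (69.6% higher) against 944 and 666 (58.6%). The count of enzymes called, 0, became 1 (MGLL) with DESeq2, with the base-quality covariate, in the upper group alone and, in a setting added after seeing the data, without RES sows 3 and 5, whose base quality was lowest. It was 0 to 1 with single libraries left out.

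The sows' numbers are shared between the diets, but over 13 pairs the correlation of deviations ran from -0.22 to 0.30, and 1 pair was over 0.1, so the numbers do not pair the samples. With the replicate block the enzymes called stayed at 0, the genes called fell to 1086, and the wider pathway genes called fell from 7 to 4, without GNAZ, GRK3 and PPARG. In the lower group alone the latter were 0, and with single libraries left out 5 to 8.

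Directions of enzymes near 0 changed. ABHD12 had a log2 fold change of -0.0038 with DESeq2, -0.0093 with filterByExpr, -0.0551 with the replicate block, -0.12 in the lower group and -0.10 without RES sows 3 and 5, and ran from -0.0874 to 0.0766 with single libraries left out. DAGLA was at 0.44 and DAGLB at 0.0638 in the upper group, and DAGLA ran from -0.15 to 0.0312 with single libraries left out. FAAH was at -0.21 in the lower group and -0.0236 without RES sows 3 and 5, and ran from -0.0306 to 0.30 with single libraries left out. GDE1 was at -0.19 in the upper group. The cause of these changes was not tested.

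The count of correlations with an adjusted p under 0.05, 1, fell to 0 on the log2 scale, without the 2 farthest libraries, as residuals within base-quality groups and, in a comparison added after seeing the data, by Spearman's rho, and was 0 to 2 with single libraries left out. With TMM-scaled counts it stayed at 1 by Pearson's r (GDE1 in RES sows, permutation adjusted p = 0.0153) and was 2 by Spearman's rho (also MGLL in FF sows, permutation adjusted p = 0.039 for both). Of the 8 genes most like CNR1, 5 were kept by Spearman's rho. The interaction called 0 of 8 enzymes in edgeR and 0 of the 6 with an adjusted p in DESeq2. CNR1, CNR2, DAGLA, FAAH and MGLL had low counts, which limits what differences between sows these libraries can show.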

Other observations

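The gonadotropin receptors FSHR, from the granulosa marker list, and LHCGR, from the theca marker list, correlated with CNR1 in opposite directions. FSHR, which receives the follicle-stimulating hormone that drives early antral growth, had r = 0.94 with CNR1 over log2 normalized counts of the 14 RES sows and 0.47 over the 13 FF sows. LHCGR, the luteinizing hormone receptor that appears in GCs as follicles mature, had r = -0.90 in RES and -0.62 in FF sows. Neither passed the edgeR threshold between the diets. FSHR averaged 568 ± 367 (SD) for FF and 783 ± 675 for RES GCs, as normalized counts, with a log2 fold change of 0.42 and a standard error of 0.36 (edgeR adjusted p = 0.453). LHCGR was at 15394 ± 6943 in FF and 9420 ± 6579 in RES GCs, with a log2 fold change of -0.73 and a standard error of 0.35 (edgeR adjusted p = 0.154). These genes were picked out after their values were seen.

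By the same measure 20 genes of the wider pathway could be compared with CNR1, and r ran from -0.60 to 0.65 in FF and from -0.73 to 0.83 in RES sows. PLA2G4E, a phospholipase that makes the precursor of anandamide, was lowest in both (-0.60 and -0.73), while GNAI1 was highest in FF sows (0.65, and 0.54 in RES) and PPARG in RES sows (0.83, and 0.54 in FF). Of the 20 genes 9 had r above 0 and 6 below 0 in both diet groups.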
